A study of Mus musculus with 6 samples.

Results

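Matrix metalloproteinases (MMPs), ADAMTS proteases and the tissue inhibitors of metalloproteinases (TIMPs) were followed in tissue labelled as cortical bone from aged mice. The members were taken by gene name from the deposited table as every numbered Mmp gene, every numbered Adamts gene and Timp1 to Timp4, which gave 45 of 32000 genes, 22 Mmp, 19 Adamts and 4 Timp. The mice were male C57BL/6J animals of 18 months that had received for 12 months a chewing diet as control (CD 1, CD 2 and CD 4) or a diet high in fat (HFD 2, HFD 3 and HFD 4). Bulk mRNA was sequenced in 3 libraries per diet, and all groups share strain, sex and age. The labels name cortical bone as the source, and the study names bone particles in its results and cortical bone in its discussion. Its bulk sequencing methods instead name marrow cells from femur and tibia, and this difference within the study is not settled. Whether a library stands for 1 animal or a pool is not stated in the labels, and the p-values therefore describe the variation among these libraries, part of which may be technical.

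Collagen and proteoglycan in bone and cartilage are cut by zinc-dependent enzymes outside the cell. MMPs are made as inactive proenzymes and were grouped by what they cut best: collagenases open the triple helix of fibrillar collagen, gelatinases digest the unwound chains, stromelysins have a broad range, and membrane-type MMPs act at the cell surface, where Mmp14 also activates pro-Mmp2. ADAMTS proteases are secreted enzymes with thrombospondin repeats, among them the hyalectanases that cut aggrecan and versican, and the procollagen N-proteinases that trim newly made collagen. TIMPs bind and block the active site of MMPs. In mouse bone, Mmp9 is known as an osteoclast product and is also held by neutrophils. Mmp13 is known as a product of hypertrophic chondrocytes and osteoblast-lineage cells, and Mmp8 and Mmp25 as products of neutrophils.

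A block of 9 members lies on chromosome 9 between 7272514 and 7699585 (GRCm38, 427 kb), all on the plus strand, in the order Mmp13, Mmp12, Mmp3, Mmp1a, Mmp10, Mmp8, Mmp27, Mmp20 and Mmp7. A further MMP gene of the annotation, Mmp1b, lies on the minus strand in this block and overlaps Mmp12, and it is not among the members and was not analysed here. The promoters of 4 members of the block are shown because these neighbours carried very different levels and diet differences, and they are read from 250 bases before to 50 bases after the RefSeq start (GRCm38.p6, plus strand) at chr9:7272264-7272563 for Mmp13, chr9:7445572-7445871 for Mmp3, chr9:7463891-7464190 for Mmp1a and chr9:7558179-7558478 for Mmp8. Capitals mark matches to TGAGTCA or TGACTCA (the same AP-1 letters on either strand), AACCACA or TGTGGTT (a RUNX motif on either strand) and TATAAA on the strand of the gene, and no match overlaps another in these 4 windows.
Mmp13: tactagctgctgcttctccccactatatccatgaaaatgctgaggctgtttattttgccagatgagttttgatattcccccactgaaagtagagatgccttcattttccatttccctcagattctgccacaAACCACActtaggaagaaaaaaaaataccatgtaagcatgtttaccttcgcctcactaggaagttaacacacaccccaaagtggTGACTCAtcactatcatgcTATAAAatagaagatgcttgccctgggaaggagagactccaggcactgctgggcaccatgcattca
Mmp3: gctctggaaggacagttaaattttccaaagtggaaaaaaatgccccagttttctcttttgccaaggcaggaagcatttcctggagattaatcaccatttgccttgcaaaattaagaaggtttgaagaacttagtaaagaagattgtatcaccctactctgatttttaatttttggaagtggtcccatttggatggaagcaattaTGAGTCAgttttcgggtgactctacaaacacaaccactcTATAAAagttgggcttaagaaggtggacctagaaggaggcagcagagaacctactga
Mmp1a: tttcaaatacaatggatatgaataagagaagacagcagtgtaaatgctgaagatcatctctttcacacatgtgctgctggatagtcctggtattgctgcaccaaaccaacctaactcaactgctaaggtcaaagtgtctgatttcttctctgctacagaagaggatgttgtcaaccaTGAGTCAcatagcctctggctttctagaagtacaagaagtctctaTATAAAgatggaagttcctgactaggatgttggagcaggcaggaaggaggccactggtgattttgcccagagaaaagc
Mmp8: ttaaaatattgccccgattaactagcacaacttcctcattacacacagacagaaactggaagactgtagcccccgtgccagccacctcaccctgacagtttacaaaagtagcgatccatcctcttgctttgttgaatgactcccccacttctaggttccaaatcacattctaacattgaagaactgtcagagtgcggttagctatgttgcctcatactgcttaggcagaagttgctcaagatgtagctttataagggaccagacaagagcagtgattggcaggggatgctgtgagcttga

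The AP-1 letters began 35 bases before the start in Mmp13, 46 in Mmp3 and 73 in Mmp1a, and TATAAA followed 16, 7 and 28 bases before the start. Mmp13 also held AACCACA 119 bases before its start. The window of Mmp8 held none of these letters. Promoter windows were found for 31 of the 45 members. The AP-1 letters stood in 6 of these 31, namely Mmp13, Mmp12, Mmp3, Mmp1a, Mmp10 and Mmp7, all in the chromosome 9 block, and in 5.2% of 32851 promoter windows of all genes. The RUNX letters stood in 3 members (Mmp13, Mmp27 and Mmp7) and in 5.27% of all windows, and TATAAA in 9 members and in 8.32% of all windows. A match is a description of the sequence and says nothing of whether a factor was bound in these samples.

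The libraries held 54.5 to 61.6 M (mega-) counts. Their TMM scaling factors (trimmed mean of M values, which correct each library for its composition) ran from 0.64 to 1.28, and mitochondrially encoded genes took 15.7% to 39.3% of the counts, with low and high libraries on both diets. Levels below are counts per 1 M (CPM) after this scaling unless FPKM is named. The FPKM are the deposited values, which divide by transcript length and do not carry the TMM scaling. Markers of osteoblasts, osteocytes and osteoclasts were counted in all 6 libraries, together with those of neutrophils and skeletal muscle. Muscle markers summed to 65632 CPM in CD 1 and to 4458 to 23212 CPM in the other libraries. A list of 6 intestinal epithelium genes summed to 1.14 and 0.539 CPM in CD 1 and CD 2, and to between 90.6 and 135 CPM in CD 4 and the HFD libraries.

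Most of these proteases and inhibitors had lower measured levels under HFD, although edgeR called none of them. A minimum of counts was passed by 37 members (17 Mmp, 16 Adamts and 4 Timp). Among them, 33 had a fitted log2 fold change below 0, where 52.5% of all 19831 tested genes had one, and the median was -1.25 for the members and -0.03 for all genes. Every HFD library lay below every CD library for 20 members (54.1%), against 10.2% of all genes, and the reverse held for 0 members, against 4.97% of all genes. The members passed this filter on counts of all libraries, so the 37 do not stand for all 45. In bulk RNA, fewer cells of a type and less RNA per cell cannot be told apart.

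The quasi-likelihood test of edgeR called 0 members at an adjusted p of 0.05, with member values between adjusted p = 0.466 and adjusted p = 0.986, and 0% of all genes. At an unadjusted p under 0.05 it counted 19 members lower (51.4%) and 0 higher, against 7.2% and 2.46% of all genes. DESeq2 called 4 of the 38 members it tested, all lower, where 1.11% of all genes were called lower and 0.535% higher. These were Adamts4 (adjusted p = 0.00212), Mmp3 (adjusted p = 0.0126), Adamts9 (adjusted p = 0.0155) and Adamts2 (adjusted p = 0.0348). The calls of DESeq2 moved with single libraries, and so did its calls over all genes. Without CD 4 it called 1 member (Adamts4, lower), where 0.184% of all genes were called lower, and 2 members each without HFD 2 (Mmp3 and Mmp1a, 0.0884% of all genes) and without HFD 3 (Adamts4 and Mmp1a, 0.145%). Of the 4 members called with all libraries, 1 thus stayed called in each of these 3 settings, and Mmp1a had counts in CD 4 only. It called 10 members lower without CD 1 (1.64% of all genes), 9 lower and 1 higher without CD 2 (1.57% lower and 2.28% higher of all genes) and 18 lower without HFD 4 (4.68% of all genes). With limma on log2(FPKM + 1), 0 of 24 members were called (smallest adjusted p = 0.0758), where 1 of 14940 genes was called lower and 9 higher.

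CD 4 was the highest library for 26 of the 37 members, and HFD 3 the lowest for 19. Without CD 4 the median was -0.66 and 9 members had an unadjusted p under 0.05. Groups did not overlap for 18 of the 20 members, against 9.89% of all genes. Leaving out a library cannot make groups that are apart overlap, except through the recomputed scaling. This count therefore does not show how much the result rests on CD 4. Of 28 named members, 13 moved by over 1.5 times in fold without CD 4 and all 13 stayed below 0, with the value without CD 4 given beside each below. Without HFD 4, 6 moved by as much and stayed below 0, namely Mmp3 (-3.62), Mmp2 (-2.71), Adamts2 (-2.57), Mmp13 (-2.54), Timp4 (-2.10) and Mmp28 (-1.63). Without HFD 2 the count at an unadjusted p under 0.05 was 12. The share of all genes at this p was not taken with a library left out, so these counts have no background beside them. The scaling also mattered. On CPM without TMM, 11 of the 20 had groups that did not overlap (4.26% of all genes), and on FPKM 10 did (4.17% of all genes), namely Mmp3, Mmp13, Mmp14, Adamts1, Adamts2, Adamts4, Adamts7, Adamts9, Timp1 and Timp2. Without TMM the median of all genes was 0.24 and that of the members -1.09.

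**Figure D1:**
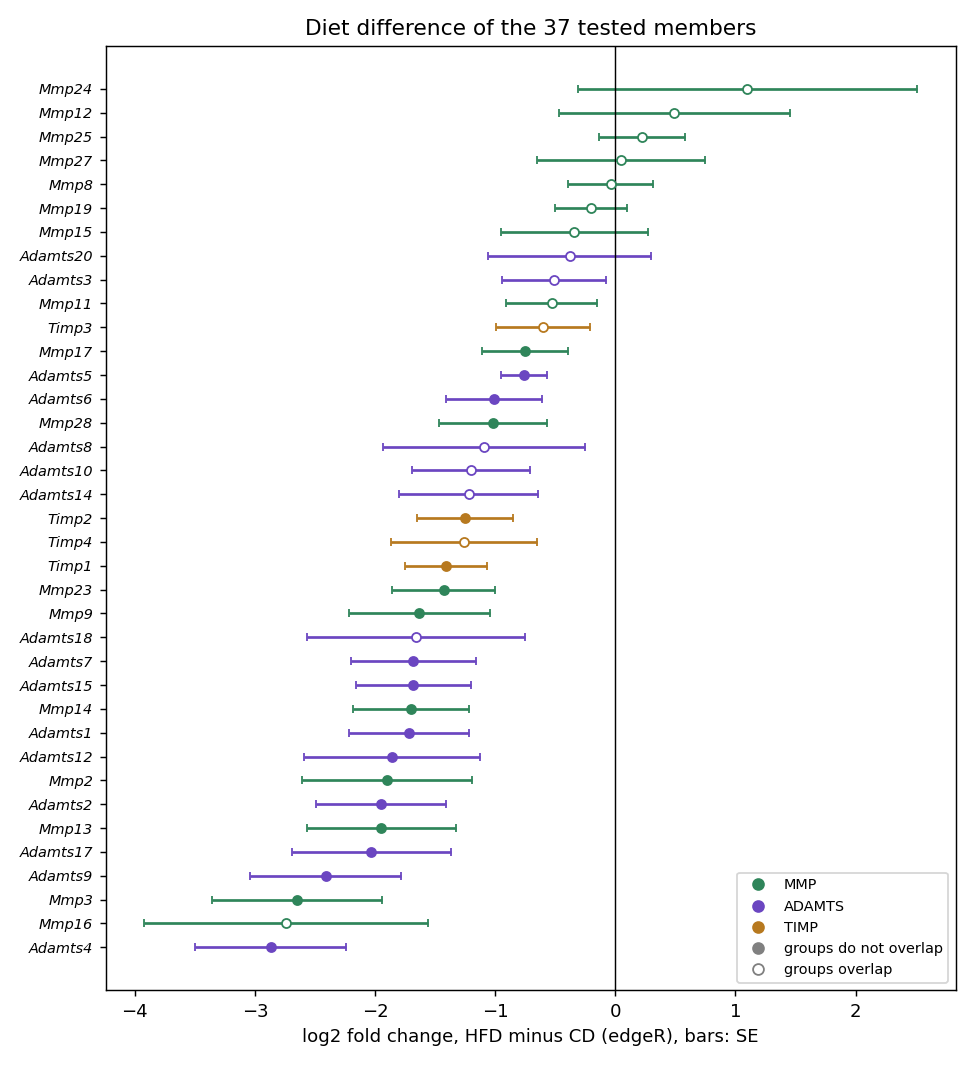
Log2 fold change, HFD minus CD, of each of the 37 tested members from edgeR, with bars for the standard error, sorted by size and coloured by family. Filled points mark the 20 members whose HFD libraries all lay below all CD libraries, and only 4 members lie to the right of 0.

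The collagenases Mmp13 and Mmp8 differed in how they stood between diets, a difference that was not tested. Mmp13, the main interstitial collagenase of mouse bone (ENSMUSG00000050578, chr9:7272514-7283331), measured 728, 400 and 1489 CPM in CD 1, 2 and 4 and 168, 131 and 379 CPM in HFD 2, 3 and 4. Its groups did not overlap, although CD 2 and HFD 4 lay close together, and the log2 fold change was -1.95 ± 0.62 (SE, n = 3 per diet), or -1.25 without CD 4 and -2.54 without HFD 4. Mmp8, the neutrophil collagenase (ENSMUSG00000005800, chr9:7558456-7568485), measured 150, 214 and 91.5 CPM under CD and 133, 179 and 130 CPM under HFD. Here both the highest and the lowest library were from CD, and the log2 fold change was -0.04 ± 0.35, with a sign that turned under other scalings (0.03 with upper quartile scaling and 0.17 without TMM). Summed markers of osteoblasts, among them Col1a1 and Ibsp, ran from 2770 to 35523 CPM under CD and from 551 to 3175 CPM under HFD, and Col1a1 alone made up 32906 of the 35523 CPM in CD 4. Of these 6 markers 4 had groups that did not overlap (66.7%, against 10.2% of all genes). DESeq2 called 4, all lower, where it called 1.11% of all genes lower. Neutrophil markers summed to 4217 to 12975 CPM under CD and 6427 to 13174 CPM under HFD, and all 8 overlapped. The part of these cells in the difference between both collagenases was not tested.

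Both gelatinases had lower fitted means and groups that did not overlap. Mmp9 (ENSMUSG00000017737, chr2:164940780-164955850), which had the highest mean FPKM of all members, measured 523, 663 and 2181 CPM under CD and 338, 385 and 367 CPM under HFD. The HFD libraries lay within a narrow band below all CD libraries, and CD 4 stood well above the rest (log2 fold change -1.63 ± 0.59). On FPKM the groups overlapped, since CD 1 was at 83.0 and the HFD libraries spanned 76.3 to 121, and without CD 4 the log2 fold change was -0.65. Mmp2, a gelatinase of fibroblasts and osteoblasts (ENSMUSG00000031740, chr8:92827291-92853420), measured 217, 263 and 593 CPM under CD and 82.8, 26.9 and 177 CPM under HFD. HFD 3 was lowest and the groups did not overlap (-1.9 ± 0.71, or -1.25 without CD 4 and -2.71 without HFD 4). On FPKM the groups of Mmp2 overlapped too, with CD 1 at 36.1 and HFD 4 at 38.6.

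Mmp9 was also set against osteoclast markers. Osteoclast markers summed to 840 to 4461 CPM under CD and 347 to 499 CPM under HFD. All 6 had groups that did not overlap (100%, against 10.2% of all genes). Without CD 4 the log2 fold change went from -2.39 to -1.10 for Acp5 and from -2.38 to -1.03 for Ctsk. The ratio of Mmp9 to Acp5, the tartrate-resistant phosphatase of osteoclasts, was 1.51, 1.43 and 1.07 under CD and 1.99, 2.29 and 1.81 under HFD. Each HFD library thus held more Mmp9 per Acp5 than each CD library. Neutrophils also hold Mmp9, and their part in this ratio was not tested. The ratio to the cathepsin K gene Ctsk overlapped between diets, with 1 to 1.71 under CD and 1.41 to 2.42 under HFD. These ratios of CPM compare libraries and not the levels of both genes, and they were given no test, since 3 against 3 libraries allow an exact permutation p of 0.1 at the smallest.

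Among stromelysins, Mmp3 was lower in every HFD library than in every CD library. Mmp3, a broad-range protease that also activates other MMPs (ENSMUSG00000043613, chr9:7445822-7455975), measured 8.56, 8.67 and 9.64 CPM under CD and 0.32, 1.14 and 2.83 CPM under HFD. The CD libraries lay close together and the HFD libraries spread over a wide range below them (-2.65 ± 0.71, or -3.62 without HFD 4). The same held relative to the fibroblast proteoglycan gene Dcn, where the Mmp3 ratio was 0.00944 to 0.0134 under CD and 0.00161 to 0.00841 under HFD. Other ratios of members to marker genes overlapped between diets, such as Mmp2 to Dcn (0.239 to 0.705 and 0.199 to 0.416), Mmp13 to Ibsp (0.943 to 2.28 and 1.07 to 1.9), Mmp13 to Col1a1 (0.0452 to 0.334 and 0.133 to 0.387), Mmp14 to Acp5 (0.145 to 0.270 and 0.238 to 0.352) and Timp1 to Col1a1 (0.00158 to 0.0139 and 0.00684 to 0.0302). Mmp11, a stromelysin activated inside the cell, averaged 7.12 ± 2.83 CPM (SD, n = 3) under CD and 4.94 ± 1.27 CPM under HFD, and its groups overlapped (-0.53 ± 0.38).

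**Figure D2:**
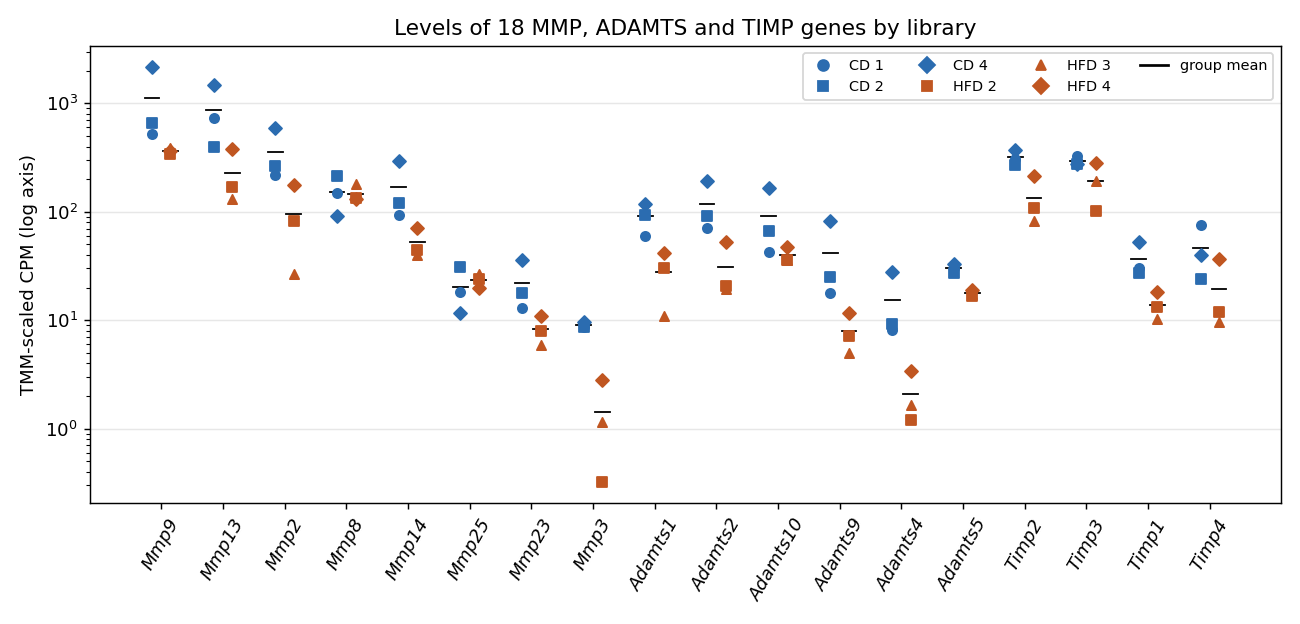
TMM-scaled CPM of 18 MMP, ADAMTS and TIMP genes in each of the 6 libraries, on a log axis, with CD in blue, HFD in orange, a marker shape per replicate number and a black bar at each group mean. Mmp8 and Mmp25 show mixed colours, whereas for Mmp3, Adamts4 and Adamts9 all orange points lie below all blue ones.

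At the cell surface, Mmp14 (ENSMUSG00000000957, chr14:54431612-54441265), the membrane-type enzyme that activates pro-Mmp2, measured 93.7, 120 and 294 CPM under CD and 44.8, 40.1 and 71.5 CPM under HFD. Its groups did not overlap, and the log2 fold change was -1.70 ± 0.48, or -0.97 without CD 4. On FPKM, CD 1 and HFD 4 were both at 8.82 after rounding, so its place among the 10 members apart on FPKM rests on a difference below the printed digits. Mmp25, a lipid-anchored MMP of neutrophils, measured between 11.7 and 31.0 CPM under CD and between 19.8 and 26.9 CPM under HFD. CD 4 was the lowest library and CD 2 the highest, and the log2 fold change was 0.22 ± 0.36, which was -0.00 without CD 4. Mmp15 averaged 12.6 ± 5.44 and 9.97 ± 6.55 CPM with overlapping groups (-0.34 ± 0.61), and its sign turned without CD 1 (0.01) and without HFD 3 (0.10). Over the 6 membrane-type genes, 4 had lower and 2 higher fitted means, and the diets were separated for 2 of them, where 10.2% of all genes had groups apart with HFD lower.

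Other MMPs were of low level. Mmp23, which is held in the membrane of the secretory route, measured 12.9, 18.0 and 35.7 CPM under CD and 7.92, 5.9 and 11 CPM under HFD, with groups that did not overlap (-1.43 ± 0.43, or -0.83 without CD 4). Mmp28 (epilysin) measured 6.55, 8.19 and 7.95 CPM under CD and 2.00, 2.88 and 6.35 CPM under HFD, and HFD 4 nearly reached CD 1 (-1.02 ± 0.45, or -1.63 without HFD 4). Mmp19 averaged 7.47 ± 1.6 and 6.52 ± 1.39 CPM (-0.20 ± 0.30), with overlapping groups and a sign that turned without TMM (0.03). The members with fitted means above 0 were Mmp25 and, named here after their values were seen, Mmp24, Mmp12 and Mmp27. These last 3 averaged 0.0426 to 0.204 FPKM over all libraries, and their log2 fold changes of 1.10 ± 1.41 (Mmp24), 0.49 ± 0.96 (Mmp12) and 0.05 ± 0.70 (Mmp27) were smaller than their standard errors.

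The pool of MMP transcripts was made of few genes. Mmp9, Mmp13, Mmp2 and Mmp8 together took between 91.4% and 94.0% of the summed Mmp FPKM in every library. The summed FPKM was 329, 600 and 1214 in CD 1, 2 and 4 and 287, 290 and 282 in HFD 2, 3 and 4, so the CD libraries spread widely and the HFD libraries hardly at all. Under CD the order by mean FPKM was Mmp9 (265), Mmp13 (258), Mmp2 (88.7), Mmp8 (53.9) and Mmp14 (23.8), and under HFD it was Mmp9 (101), Mmp13 (76.1), Mmp8 (60.7), Mmp2 (24.9) and Mmp14 (8.2). Mmp9 and Mmp13 did not differ beyond the spread of their libraries on either diet, whereas Mmp8 lay above Mmp2 in CD 2 and in each HFD library, by little in HFD 4 (39.5 against 38.6 FPKM), and below it in CD 1 and CD 4 (31.0 against 145 FPKM in CD 4). The share of Mmp8 in the pool was 10.6%, 16% and 2.56% under CD and 21.1%, 28.3% and 14.0% under HFD. HFD 4 lay under CD 2, so these shares overlapped.

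**Figure D3:**
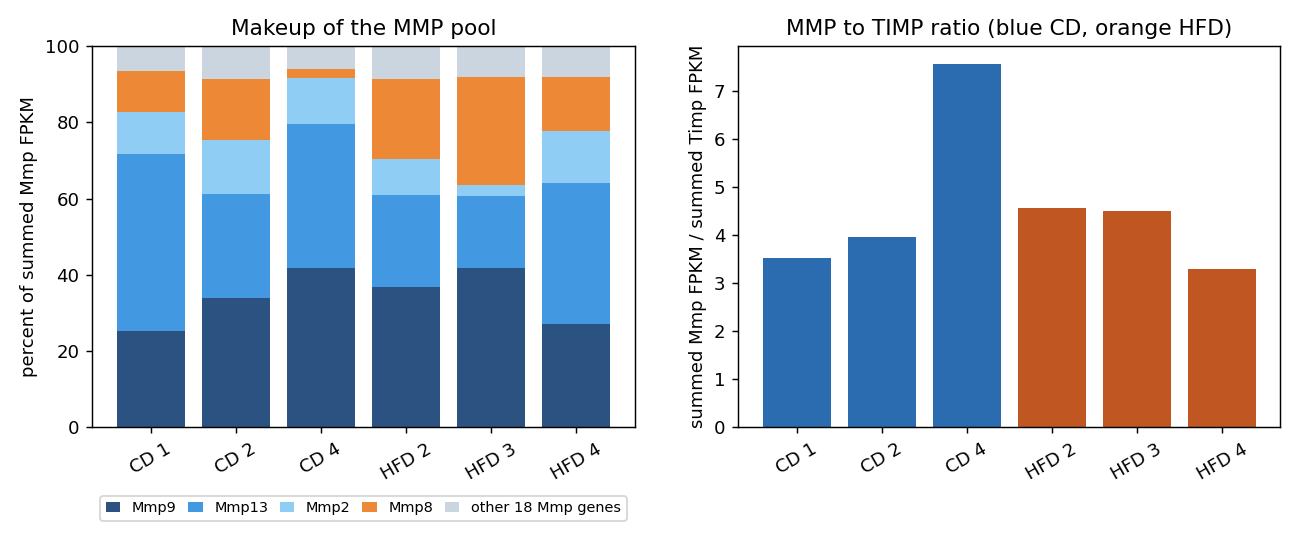
Left, the share of Mmp9, Mmp13, Mmp2, Mmp8 and the other Mmp genes in the summed Mmp FPKM of each library, in percent. Right, the ratio of summed Mmp to summed Timp FPKM in each library, which is 7.56 in CD 4 and between 3.30 and 4.56 in the other 5.

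Along the chromosome 9 block, Mmp13 and Mmp8 took 73.5% and 25.2% of the FPKM of the 9 genes. Mmp3 was counted at the levels given above, and several of the other genes had few or no counts. Mmp1a, the rodent relative of human interstitial collagenase, had 94 counts in CD 4 and 0 in every other library. Mmp20, the enamel protease, had 13 counts in CD 4 only, and Mmp10 had 22 counts in CD 4 and 4 in HFD 2. Mmp7 (matrilysin), known from intestinal Paneth cells, had 7 and 6 counts in HFD 3 and HFD 4 and 0 elsewhere. The intestinal list stood at 90.6 and 135 CPM in these libraries, and also at 103 in CD 4 and 94.5 in HFD 2, where Mmp7 was at 0. A count of 0 allows up to 3 counts per library, so Mmp7 was not detectable at this depth in those libraries. Besides these 4 genes, Adamts13, Adamts16, Adamts19 and Mmp21 did not pass the count filter, and Mmp21 had 4 counts in each HFD library and 0 in each CD library.

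**Figure D4:**
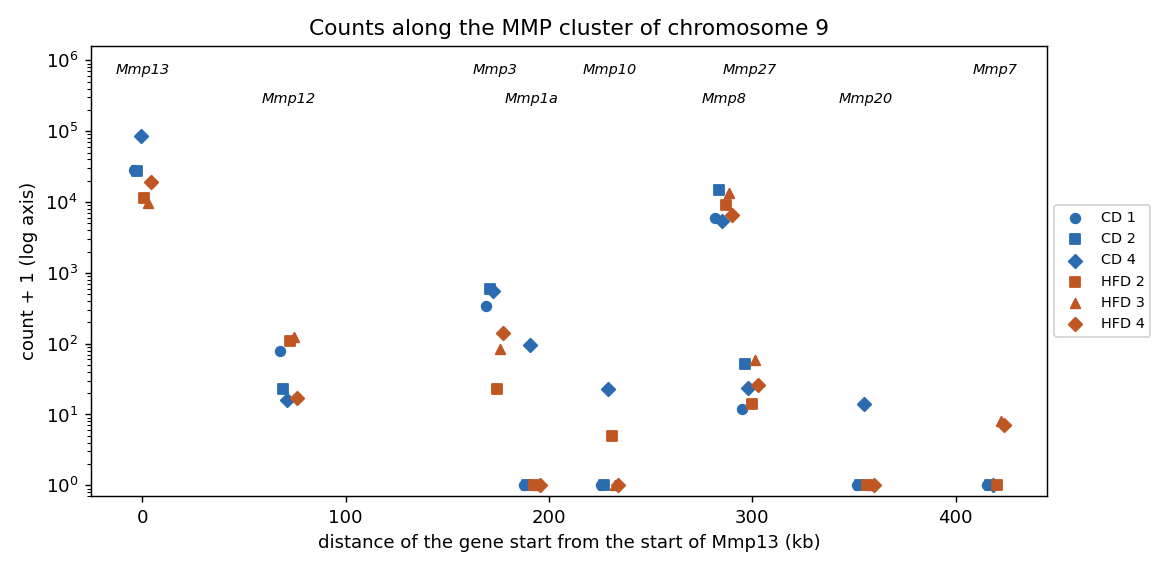
Unscaled counts plus 1, on a log axis, of the 9 MMP genes of the chromosome 9 block in each library, placed by the distance in kb of the gene start from that of Mmp13 and nudged sideways so that libraries can be told apart. Mmp13 and Mmp8 hold the high values, and Mmp1a and Mmp20 have counts above 0 only in CD 4.

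All 16 tested ADAMTS genes had lower fitted means under HFD, 10 with groups that did not overlap (62.5%, against 10.2% of all genes), and the median was -1.67. Among the 7 hyalectanases, 5 had groups that did not overlap (71.4%). Adamts4, an aggrecanase (ENSMUSG00000006403, chr1:171250421-171260637), measured 8.18, 9.18 and 28.1 CPM under CD and 1.19, 1.66 and 3.39 CPM under HFD. All HFD libraries lay well under the lowest CD library, and its log2 fold change was -2.87 ± 0.63, or -2.00 without CD 4, where that of Mmp3 was lower (-2.53). Adamts9, which cuts versican and aggrecan (ENSMUSG00000030022, chr6:92772699-92943492), measured 18.0, 24.8 and 83.0 CPM under CD and 7.15, 4.95 and 11.6 CPM under HFD (-2.41 ± 0.63). Its groups were apart, with CD 4 far above the rest, and without CD 4 the log2 fold change was -1.37.

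Adamts1, the hyalectanase with the highest mean FPKM (chr16:85793827-85803113), measured 59.7, 93.1 and 119 CPM under CD and 30.2, 11 and 41.7 CPM under HFD (-1.72 ± 0.50). Its neighbour Adamts5, the other major aggrecanase (chr16:85856173-85901828), measured 30.6, 27.0 and 32.7 CPM under CD and 16.6, 17.6 and 19.1 CPM under HFD. Adamts5 had the smallest standard error of the tested members, with tight libraries on both diets and a log2 fold change of -0.76 ± 0.19, yet its groups overlapped on FPKM, where CD 1 was at 1.59 and HFD 3 at 1.82. Adamts15 measured 5.69, 8.32 and 11.1 CPM under CD and 1.80, 1.69 and 4.35 CPM under HFD (-1.68 ± 0.48). Of their substrate genes, Acan (aggrecan) was lower in every HFD library (-2.45 ± 0.64) and Vcan (versican) overlapped between diets (-0.33 ± 0.33).

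Of the procollagen N-proteinases, Adamts2 (ENSMUSG00000036545, chr11:50602084-50807573), which removes the amino-terminal propeptide of type I collagen, measured 70.8, 92.1 and 193 CPM under CD and 20.8, 19.2 and 52.4 CPM under HFD. The groups were apart (-1.95 ± 0.54, or -1.34 without CD 4 and -2.57 without HFD 4). Adamts14, an enzyme of the same kind, averaged 10.4 ± 7.00 and 4.48 ± 2.15 CPM and overlapped (-1.22 ± 0.58, or -0.49 without CD 4). The type I collagen gene Col1a1 itself overlapped too, with 2181, 7658 and 32906 CPM under CD and 1261, 338 and 2657 CPM under HFD. CD 4 stood far above the rest, and the log2 fold change was -3.33 ± 1.25, or -1.72 without CD 4 and -4.16 without HFD 4. DESeq2 called both genes (adjusted p = 0.0348 for Adamts2 and adjusted p = 0.0189 for Col1a1), and the difference between them was not tested.

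All 6 tested genes of the other ADAMTS had lower fitted means, 4 with groups apart (66.7%, against 10.2% of all genes). Adamts10, an enzyme linked to fibrillin microfibrils, measured 42.5, 67.2 and 165 CPM under CD and 35.7, 35.8 and 47.8 CPM under HFD, and CD 1 lay under HFD 4 (-1.20 ± 0.49, or -0.40 without CD 4). Adamts7 and Adamts12 are relatives that cut cartilage oligomeric matrix protein. Adamts7 measured 3.05, 3.15 and 9.07 CPM under CD and 1.39, 1.46 and 1.9 CPM under HFD (-1.68 ± 0.52, or -0.90 without CD 4). Adamts12 measured 5.00, 7.40 and 19.1 CPM under CD and 3.09, 0.839 and 4.79 CPM under HFD, with CD 1 just above HFD 4 (-1.86 ± 0.73, or -1.02 without CD 4). For both genes the highest library was CD 4. Adamts6 measured 6.96, 6.82 and 13.5 CPM under CD and 2.99, 5.17 and 5.35 CPM under HFD (-1.01 ± 0.40). Adamts17 was at 0.66, 0.845 and 2.46 CPM under CD and 0.392, 0.352 and 0.22 CPM under HFD (-2.03 ± 0.66, or -1.16 without CD 4). The remaining tested ADAMTS genes overlapped between diets, and Adamts1, Adamts2 and Adamts10 together made up 64.7% to 75.5% of the summed Adamts FPKM.

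All 4 inhibitors had lower fitted means, 2 of them with groups that did not overlap (50%, against 10.2% of all genes), and neither edgeR nor DESeq2 called any with all libraries. In DESeq2 Timp1 lay at adjusted p = 0.0501, and it was called without CD 2, and together with Timp2 and Timp4 without HFD 4. Timp2 (ENSMUSG00000017466, chr11:118301069-118355740), the inhibitor that also helps Mmp14 to activate pro-Mmp2, measured 310, 272 and 375 CPM under CD and 108, 81.6 and 213 CPM under HFD. Timp1 (ENSMUSG00000001131, chrX:20870166-20874735), a secreted inhibitor with high affinity for Mmp9, measured 30.4, 27.4 and 52.1 CPM under CD and 13.1, 10.2 and 18.2 CPM under HFD. Both had groups that did not overlap, on CPM and on FPKM, with log2 fold changes of -1.25 ± 0.40 for Timp2 and -1.41 ± 0.34 for Timp1. Timp3, which is held in the matrix and also blocks aggrecanases, measured 325, 278 and 274 CPM under CD and 102, 193 and 283 CPM under HFD. HFD 4 reached the CD range and HFD 2 did not (-0.60 ± 0.39). Timp4 measured between 23.9 and 75.2 CPM under CD and between 9.69 and 36.5 CPM under HFD and overlapped (-1.26 ± 0.61, or -2.10 without HFD 4), and its highest library, CD 1, was also the one with the highest muscle marker sum, an association that was not tested.

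By mean FPKM the order of the inhibitors was Timp2 (66.6), Timp1 (33.7), Timp3 (29.1) and Timp4 (5.73) under CD and Timp2 (31.4), Timp3 (21.9), Timp1 (14.7) and Timp4 (2.87) under HFD. Timp1 and Timp3 exchanged places in these means, but the order under CD rested on CD 4, where Timp1 was at 48.3 and Timp3 at 27.6 FPKM. In CD 1 (22.4 against 19.2 FPKM) and CD 2 (37.1 against 33.5 FPKM) Timp3 lay above Timp1, and in HFD 2 Timp1 lay above Timp3 (16.2 against 13.8 FPKM). The ratio of summed Mmp to summed Timp FPKM was 3.52, 3.97 and 7.56 under CD and 4.56, 4.50 and 3.30 under HFD. The ratio overlapped between diets, with CD 4 alone standing above the rest. Leaving out the neutrophil genes Mmp8 and Mmp25, the ratio was 3.13 to 7.36 under CD and 2.81 to 3.52 under HFD, again with overlap. Mmp9, which neutrophils also hold, stayed in this ratio.

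Genes that activate or clear the enzymes mostly had lower fitted means, as 52.5% of all tested genes did. Neither edgeR nor DESeq2 called any of them. In the list of activation and plasmin genes, 8 of 10 tested had lower and 2 had higher fitted means. Groups were apart with HFD lower for 3 of them (30%, against 10.2% of all genes). The reverse held for 1 of them, against 4.97% of all genes. Serpine2, an inhibitor of plasminogen activators, measured 297, 448 and 813 CPM under CD and 190, 234 and 224 CPM under HFD (-1.27 ± 0.41), and the urokinase receptor gene Plaur overlapped (-0.22 ± 0.35). Among other inhibitors and clearance genes 4 of 4 had lower fitted means, 2 with groups apart (50%, against 10.2% of all genes). These 2 were the endocytic receptor gene Lrp1, at 191, 262 and 320 against 117, 102 and 158 CPM (-1.03 ± 0.31), and the membrane-anchored MMP inhibitor gene Reck (-0.75 ± 0.27). Of 5 inducer and docking genes 2 had lower and 3 higher fitted means, and all overlapped. They include Lcn2, which binds Mmp9 in neutrophils (0.38 ± 0.51), the MMP inducer gene Bsg (-0.20 ± 0.30) and the integrin gene Itgav (-1.11 ± 0.48, or -0.26 without CD 4).

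All 7 ADAMTS-like genes, which lack the protease domain, had lower fitted means, 2 with groups apart (28.6%, against 10.2% of all genes), and Adamtsl5 (-0.06 ± 0.50), Adamtsl4 (-0.43 ± 0.35) and Adamtsl3 (-1.05 ± 0.44) all overlapped. Of 11 tested ADAM proteases 8 had lower and 3 higher fitted means. Groups were apart with HFD lower for 2 of them (18.2%, against 10.2% of all genes). The sheddase gene Adam10 (0.17 ± 0.29) and the myeloid gene Adam8 (-0.47 ± 0.28) overlapped. Adam12, an ADAM of mesenchymal cells, measured 24.8, 31.6 and 101 CPM under CD and 5.11, 2.36 and 13.4 CPM under HFD (-2.92 ± 0.79, or -1.95 without CD 4 and -3.81 without HFD 4), and DESeq2 called it (adjusted p = 0.0095). Adamdec1, a secreted ADAM, was named after its values were seen. It was the 1 gene of these 11 with every HFD library above every CD library, which held for 4.97% of all genes. It measured 0, 0.321 and 1.86 CPM under CD and 7.42, 4.01 and 5.87 CPM under HFD. It was low in CD 1 and CD 2, which lacked the intestinal transcripts, but also in CD 4, which held them, and their part in its level was not tested.

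Among 14 substrate genes, 12 had lower fitted means, and for 7 (50%) all HFD libraries lay below all CD libraries, against 10.2% of all genes. DESeq2 called 5, all lower, where it called 1.11% of all genes lower. These were Col1a1 (adjusted p = 0.0189), Col1a2 (adjusted p = 0.0178), the tenascin gene Tnc (adjusted p = 0.0163), Comp (adjusted p = 0.0196) and Acan (adjusted p = 0.0151). Single libraries moved these folds, with Col1a2 at -3.34 and -1.69 without CD 4, Acan at -1.60 without CD 2 and Comp at -2.32 and -3.15 without HFD 4. Tnc had the smallest unadjusted p of the list in edgeR and measured 335, 554 and 926 CPM under CD and 114, 137 and 242 CPM under HFD (-1.88 ± 0.49). Chondrocyte markers, which include Acan and Comp, summed to 243 to 715 CPM under CD and 24.9 to 173 CPM under HFD, and fibroblast and tendon markers to 1070 to 1534 and 237 to 853 CPM. Both sums did not overlap between diets, as with the osteoclast markers. Other marker sums overlapped. Osteocyte markers summed to 134 to 681 CPM under CD and 26.8 to 248 CPM under HFD, and endothelial markers to 289 to 399 and 167 to 315 CPM. Stromal niche markers summed to 426 to 660 and 533 to 1123 CPM, and monocyte and macrophage markers to 255 to 443 and 326 to 527 CPM. Groups were apart for 2 of 4 tested chondrocyte markers (50%) and 4 of 6 fibroblast and tendon markers (66.7%), against 10.2% of all genes. Col2a1, Sox9 (-0.27 ± 0.44), Scx and Pi16 (0.19 ± 0.28) overlapped. The part of these cells in the lower protease levels was not tested.

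Of 12 transcription factor genes known to act on protease promoters, 10 had lower fitted means, and the HFD libraries of 7 (58.3%) all lay below the CD libraries, against 10.2% of all genes. Fos and Junb, subunits of AP-1, measured 738, 1074 and 792 CPM (Fos) under CD and 331, 333 and 651 CPM under HFD, with log2 fold changes of -0.99 ± 0.40 for Fos and -0.78 ± 0.33 for Junb. Fosl2, a further Fos family subunit, measured 73.5, 132 and 143 CPM under CD and 46.9, 46.1 and 50.9 CPM under HFD. The HFD libraries of Fosl2 were close to each other and below all CD libraries (-1.28 ± 0.29), and DESeq2 called it (adjusted p = 0.0333). The AP-1 letters stood in the promoter windows of Mmp13, Mmp3, Mmp1a, Mmp12, Mmp10 and Mmp7. None of the other member windows found, such as those of Mmp8 and Adamts1, held them. Whether these factors bear on any of the genes was not tested.

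Several members overlap other genes in the annotation, among them Mmp12 with Mmp1b, Adamts7 with Tbc1d2b, Mmp11 with Chchd10, Mmp19 with Tmem198b, Timp1 with Syn1, Timp3 with Syn3 and Timp4 with Syn2 on the opposite strand, and Timp2 with Cep295nl on the same strand. The library protocol marks strand, but the counting call in the study's methods shows no strand option, and whether that call made these counts is not settled, so reads of these pairs may be shared and their values are uncertain to that extent.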

How the data were processed

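RNA labelled as from cortical bone was sequenced in 6 libraries, and groups and replicate numbers came from the labels. The authors deposited 1 table with raw gene counts and FPKM per library (no other scaling). The tools in the submitters' processing notes include StringTie 1.3.4d, HISAT2 2.0.4 and cutadapt 1.9, besides edgeR, DESeq2 and UMI-tools. Because the methods of the study give a different aligner and counter, the origin of the counts and their use of strand are not settled.

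The counts of all genes were tested with edgeR 4.0.16 in R 4.3.3 (TMM, low counts removed by filterByExpr at min.count 10, quasi-likelihood test, diet as the only term, two-sided, Benjamini-Hochberg over 19831 genes, threshold 0.05). The SE was taken from the fold change and its F value. Alternatives were DESeq2 1.42.0, other scalings, no filter, limma 3.58.1 on log2(FPKM + 1) and log2(FPKM + 0.1) for genes that reached 0.5 FPKM in 3 or more libraries, a replicate block, the mitochondrial share as a covariate, each library left out and CD 4 alone against HFD. Total count scaling without TMM and DESeq2 with each library left out were added after seeing the data. The edgeR and DESeq2 fits were tested on simulated data.

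The members and lists were chosen with earlier results of these data known, and so carry no test of their own. Named are all Timp genes, Mmp and Adamts genes with a mean FPKM of at least 1 and tested members at an unadjusted p under 0.05, and for each further list the 2 most abundant genes and that of smallest p. Values per library are given for named members with a mean FPKM of at least 5 or groups that do not overlap. Promoters are RefSeq windows of GRCm38.p6. The depth of 54.5 to 61.6 M counts per library sets the precision, and a count of 0 allows up to 3 counts, which covers counting error only. Of the 45 members 38 have the same start and end in GENCODE M21.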

Additional observations from a re-analysis of the deposited data

How the results depend on the processing

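In edgeR the number of members called was 0 under every scaling, filter, covariate and library left out, and DESeq2 called 4. With a library left out the number called ran from 0 (edgeR) to 18 (DESeq2 without HFD 4, where 4.68% of all genes were called lower against 1.11% with all libraries), with 10 in DESeq2 without CD 1 (1.64% of all genes lower) and 10 without CD 2 (1.57% lower, 2.28% higher). The median over the members was -2.01 for CD 4 alone against HFD, where the lone CD sample is assumed to vary like the HFD libraries, and it ran from -1.65 without HFD 4 to -0.66 without CD 4. The members with all HFD libraries below all CD libraries numbered 32 of 41 for CD 4 alone (31.8% of all genes), 11 of 37 without TMM (4.26%), 9 of 24 in both limma fits on FPKM (3.61%) and 18 to 27 with a library left out (9.89% to 18% of all genes). In the limma fits the median of all genes was 0.19 (pseudocount 1) and 0.27 (pseudocount 0.1), so member values stand relative to that shift. Fewer members passed the FPKM filter of the limma fits, and otherwise the cause was not tested.

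Of the named members, 3 turned in sign, none of them called. Mmp8 was 0.69 for CD 4 alone, 0.31 and 0.30 on FPKM (pseudocounts 0.1 and 1), 0.17 without TMM, 0.03 with upper quartile scaling and -0.25 to 0.28 with a library left out. Mmp19 was 0.08 and 0.04 on FPKM and 0.03 without TMM. Mmp15 was 0.47 with the replicate block and -0.85 to 0.10 with a library left out. Under DESeq2, Adamts2, Adamts4, Adamts9 and Mmp3 passed the threshold, and Mmp25 was at -0.00 without CD 4. The remaining 421 comparisons with named members kept direction and side of the threshold. They leave out DESeq2 with a library left out, where further named members passed it, such as Mmp13, Mmp14, Mmp9 and Timp1 without CD 2. With the replicate block the median was -1.29, 0 members were called and 20 had groups apart. The diets share only the numbers 2 and 4, whose libraries correlated at -0.155 and 0.18 in their deviations from the group means, so the numbers were not taken to pair the samples. Genes of a few counts, such as Mmp7, Mmp10 and Mmp21, are limited by depth.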
